A study of Mus musculus with 12 samples.

Results

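The genes described here are 34 transcripts listed as p53 target genes, taken by symbol from a count table of 55291 gene symbols. They include Trp53 itself and Mdm4, which restrains p53, and induction of each member by p53 was not tested here. All 34 were in the table, and 33 of them were among the 19010 genes with enough counts to be tested. Growth differentiation factor 15 (Gdf15) was the member left out, with at most 6 counts in any library. The list was given as p53 target genes and uses no threshold in these data, but it was made with earlier results of these data known.

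The cells were CD8+ T cells, the cytotoxic lymphocytes, of WT or Dock8 KO mice. Dock8 is a guanine nucleotide exchange factor that activates Cdc42, a small GTPase that drives actin assembly, and the study asks how it keeps T cells and their nuclei intact while they move through dense surroundings. All cells were activated and expanded for 3 days in culture and then held for 24 h either in media or inside a gel of bovine collagen (Nutragen, 2 mg/mL). The 4 groups are therefore WT media, WT gel, KO media and KO gel, with 3 libraries each and 3 mice per group in the labels. The sources used here give neither the age of the mice nor the kind of Dock8 allele. In the labels nothing ties a media library to a gel library of the same mouse, and p-values measure the spread between these libraries.

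p53, encoded by Trp53, is a transcription factor that is kept scarce by its own target Mdm2 and accumulates when DNA is damaged or the cell is otherwise stressed. It binds response elements made of paired half-sites near its target genes and switches on separate programmes: cell cycle arrest (Cdkn1a, which encodes p21), cell death (Bax, Bbc3, Pmaip1, death receptors), DNA repair, negative feedback on p53 itself, and metabolic and redox genes. p53 is controlled largely at the level of its protein, which RNA does not show. In activated T cells, which divide fast, these programmes restrain expansion and remove damaged cells.

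Library totals ran from 28483064 to 61390702 counts. Dock8 itself was at 29.4% of the WT level in KO media and 39.3% in KO gel, lower in all 6 KO libraries than in all 6 WT libraries. Nnt, which carries a deletion in the C57BL/6J substrain, was higher in KO than in WT cells, by 1.23 in media and 1.03 in gel (log2), so that genotype and substrain cannot be told apart. The KO gel libraries stood apart from the other 9: 28344 to 30107 genes had a count when depths were made equal, against 24336 to 25064 elsewhere, and olfactory receptor genes, which are silent in T cells, had summed levels of 22.5 to 35.7 CPM against 10.1 to 13.2 (CPM is the count scaled to a library total of 1000000, after TMM scaling). Loci resembling ribosomal RNA, picked after their counts were seen, took 15.4% of counts in WT gel replicate 2 and 10.3% in KO media replicate 3, above the other 10 libraries. The defining CD8 T cell markers Cd3e, Cd3g, Cd8a, Cd8b1, Trac and Lck were high in every library. Because these are bulk samples, fewer cells of a type and less RNA per cell cannot be told apart.

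Promoter sequence was searched for the p53 response element, because p53 binds such elements near its target genes. The search used the RefSeq windows of GRCm38.p6 from 250 bases before to 50 bases after each annotated start, on both strands. It looked for the element as 2 half-sites of 10 bases with up to 13 bases between them, the C and G of each core fixed. Of the 34 members, 26 had a window. At most 2 mismatches were found in 4 of the 38 windows of members, in 4 members, while 4.09% of all 32851 windows held such a match. The 4 are shown 5′ to 3′ on the strand of the gene, with both half-sites in capitals and 20 bases on either side, as 1 arrest gene, 1 feedback gene, 1 metabolic gene and 1 death gene.
Cdkn1a, chr17:29090886-29090957, plus strand: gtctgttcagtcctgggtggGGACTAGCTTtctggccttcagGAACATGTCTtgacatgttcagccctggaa
Ccng1, chr11:40755442-40755501, minus strand: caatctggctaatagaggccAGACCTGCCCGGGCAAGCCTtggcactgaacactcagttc
Sesn1, chr10:41887233-41887295, plus strand: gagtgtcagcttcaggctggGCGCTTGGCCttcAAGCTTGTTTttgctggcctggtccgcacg
Bax, chr7:45467059-45467119, minus strand: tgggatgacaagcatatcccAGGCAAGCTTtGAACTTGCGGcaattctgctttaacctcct
The Cdkn1a match had 0 mismatches and 12 bases between its half-sites, and lay 73 to 42 bases before the upstream of its 2 annotated starts. The window of the other start held no match of this kind. In each window the pair with the fewest mismatches was marked. In Cdkn1a the 10 bases directly after the second marked half-site, in small letters, also form a half-site, with 1 mismatch. That half-site and the second marked one abut and make a further pair, which was not marked. Where a gene has several annotated starts, the window with the match is shown. The Ccng1 match had 1 mismatch and directly abutting half-sites. Those of Sesn1 and Bax had 2 mismatches each. A match of letters is a description of the window and not a measured binding site, and many known p53 sites lie outside such short windows.

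In Dock8 KO cells most of the listed genes had higher levels in the gel. Of the 33 tested, 22 rose, 3 fell (Ddb2, Trp53 and Tigar) and 8 did not pass the test, by the quasi-likelihood test of edgeR, adjusted by Benjamini-Hochberg over all 19010 genes. Over all genes tested, 11.1% were called higher and 9.74% lower in the same comparison, and 20.8% in either direction. The median log2 fold change of the members was 0.38, against -0.007 for all genes. Groups that did not overlap were found for 25 members with gel above media and for 3 with gel below media, against 23.5% and 23.9% of all genes. The heat map shows the shift as a band over the 3 KO gel columns. With WT gel replicate 2 and KO media replicate 3 left out, the count was 17 higher and 0 lower, for which no share over all genes is given here. With libraries scaled to total counts alone it was 20 higher and 0 lower. The 3 falls lost their calls in both of these alternatives, while their values stayed below 0 in all that were run. Under that scaling, 2007 genes of the whole table were called higher and 869 lower, against 2111 and 1851.

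**Figure D1:**
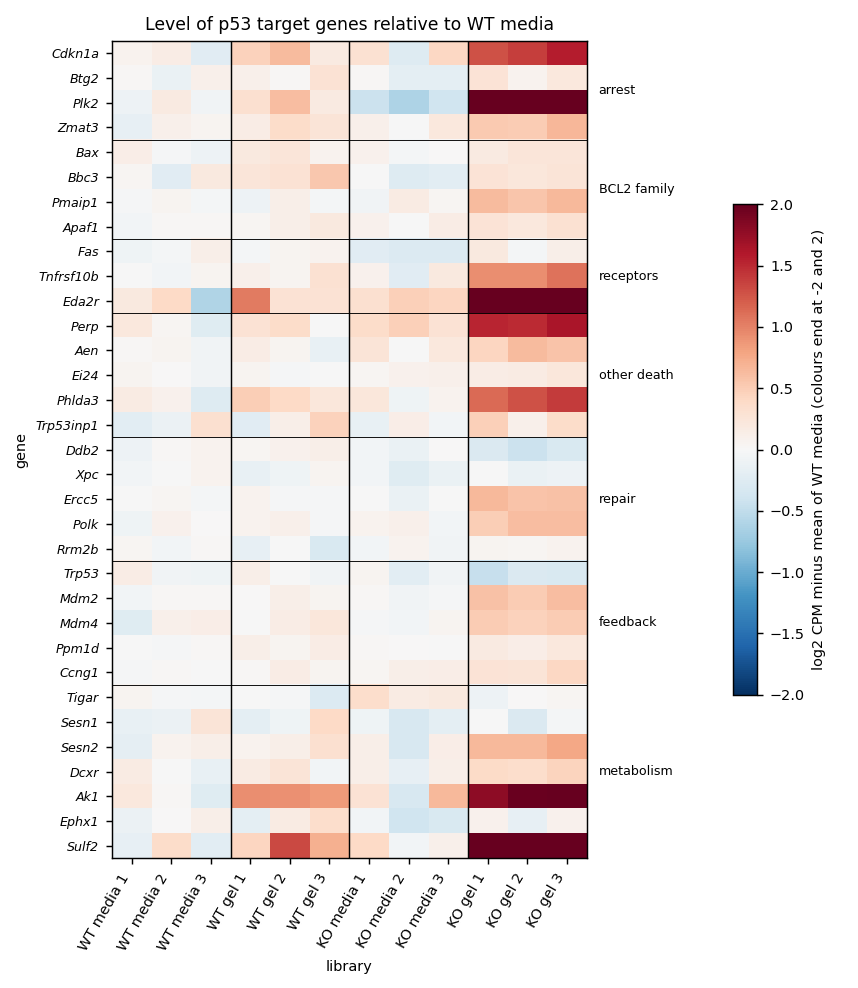
Heat map of the 33 tested p53 target genes (y axis, by branch) in the 12 libraries (x axis); colour is log2 CPM minus the mean of the 3 WT media libraries, and colours end at -2 and 2. The 3 KO gel columns are red for most genes and blue for Ddb2 and Trp53.

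The arrest genes all rose in KO cells in gel, 4 of 4. Positions are those of GENCODE M21 on GRCm38. Plk2, a stress-responsive polo-like kinase (chromosome 13, 110395046 to 110400844), stood at 4.78, 4.18 and 4.85 CPM in KO media, against 30.3, 34.5 and 38.7 in KO gel. In WT cells it was at 5.96, 7.27 and 6.08 CPM in media and 8.03, 9.87 and 7.25 in gel. The 3 KO gel libraries lay above all others, while WT gel overlapped WT media. The gel difference in KO cells was 7.48-fold (log2 2.90, SE 0.13, adjusted p 1.37e-08), and in WT cells 1.30-fold (log2 0.37, SE 0.13, adjusted p 0.812).

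Cdkn1a encodes p21, the inhibitor of cyclin-dependent kinases through which p53 halts division (chromosome 17, 29090976 to 29100727), and its promoter window holds the match printed above. Its levels were 31.9, 21.7 and 34.4 CPM in KO media, against 62.5, 67.4 and 76.7 in KO gel. WT media held 27.2, 28.8 and 22.2 CPM and WT gel 35.4, 40 and 29.2. Every KO gel library was above every other library, and WT gel also lay above WT media without overlap. Cdkn1a rose 2.35-fold in KO cells (log2 1.23, SE 0.16, adjusted p 0.000299). The WT value was 1.34-fold (log2 0.42, SE 0.16, adjusted p 0.892).

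Zmat3, an RNA-binding protein that acts in splicing downstream of p53, was at 68.0, 62.5 and 72.6 CPM in KO media, against 90.9, 90.0 and 99.9 in KO gel. In WT cells it was at 56.5, 67.8 and 65.5 CPM in media and 69.6, 81.8 and 75.1 in gel. Gel lay above media in both genotypes without overlap. The rise in KO cells was 1.38-fold (log2 0.47, SE 0.09, adjusted p 0.00213), and the WT value was 0.25 (SE 0.09, adjusted p 0.805). The antiproliferative gene Btg2 rose less, by 0.31 on the log2 scale in KO cells, and this call was lost without KO media replicates 2 or 3 or KO gel replicates 1 or 3.

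Among the BCL2 family and apoptosome genes, which belong to the mitochondrial route of cell death, 3 of 4 rose in KO cells in gel. Pmaip1, which encodes the BH3-only protein NOXA, was at 27.4, 32.2 and 29.6 CPM in KO media, against 44.4, 42.1 and 45.0 in KO gel. WT levels were 28.3, 29.8 and 27.9 CPM in media and 26.7, 31.1 and 27.8 in gel. KO gel stood apart from the other 3 groups, which overlapped. The rise was 1.48-fold (log2 0.56, SE 0.08, adjusted p 0.000249), against -0.01 (SE 0.08) in WT cells.

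Bbc3, which encodes PUMA, showed a different arrangement. Its levels were 27.9, 23.4 and 24.3 CPM in KO media, against 33.8, 32.6 and 33.6 in KO gel, and 28.7, 23.9 and 32.0 CPM in WT media, with 33.0, 34.3 and 40.8 in WT gel. Gel was above media in both genotypes, and the gel groups overlapped each other. The KO gel difference was 1.32-fold (log2 0.40, SE 0.11, adjusted p 0.018) and the WT difference 1.28-fold (log2 0.35, SE 0.11, adjusted p 0.658). The KO call was lost without KO media replicates 2 or 3 or KO gel replicates 1 or 3. Apaf1, the scaffold of the apoptosome, went from 146, 135 and 151 CPM in KO media to 166, 159 and 169 in KO gel, with 132, 139 and 140 in WT media, with 141, 149 and 156 in WT gel. KO gel lay above the other groups by a small margin (log2 0.19, SE 0.06, adjusted p 0.0483). That call was lost in 13 of 22 alternative analyses, among them the removal of any single KO library. Bax, the pore-forming member of the family, was 0.20 higher on the log2 scale and did not pass the test (adjusted p 0.0589).

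All 3 death receptor genes rose in KO cells in gel. Eda2r, a receptor of the tumour necrosis factor family for ectodysplasin A2 (chromosome X, 97333840 to 97377216), was nearly silent outside KO gel. It was at 0.283, 0.318 and 0.308 CPM in KO media, 0.262, 0.302 and 0.149 in WT media, and 0.471, 0.279 and 0.277 in WT gel, but 2.16, 2.65 and 3.09 in KO gel. All KO gel libraries were above all others, by 8.69-fold over KO media (log2 3.12, SE 0.26, adjusted p 6.27e-06). This was the largest fold among the 33 tested members, at the lowest level among them. Tnfrsf10b, the mouse TRAIL death receptor, was at 9.89, 7.92 and 10.6 CPM in KO media, against 17.7, 17.8 and 19.7 in KO gel. In WT cells it held 9.24, 8.94 and 9.69 CPM in media and 9.94, 9.63 and 11.5 in gel. Only the KO gel libraries were set apart, 1.94-fold above KO media (log2 0.96, SE 0.11, adjusted p 9.16e-05).

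Fas, the receptor through which activated T cells are removed, was at 17.1, 16.7 and 16.7 CPM in KO media against 19.0, 19.5 and 21.9 in WT media. These groups did not overlap, but the difference between them did not pass the test. In gel it was at 23.1, 19.6 and 21.9 CPM in KO and 19.6, 20.8 and 21 in WT cells. The KO gel libraries lay above KO media but overlapped the WT values. The gel difference in KO cells was 1.28-fold (log2 0.35, SE 0.08, adjusted p 0.00724), and it was not called without KO gel replicate 1 (adjusted p 0.051).

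The other death and stress effectors held 3 members that rose and 2 that did not pass the test. Perp, a membrane protein of desmosomes that p53 induces during apoptosis, was at 3.59, 3.89 and 3.41 CPM in KO media, against 8.08, 7.84 and 8.68 in KO gel, and at 3.22, 2.86 and 2.37 CPM in WT media, with 3.41, 3.62 and 2.77 in WT gel. KO gel was clearly separate, 2.26-fold above KO media (log2 1.18, SE 0.14, adjusted p 0.000101). Phlda3, which competes with the kinase AKT for membrane lipids, was at 8.01, 6.43 and 7.15 CPM in KO media, against 15, 16.5 and 17.9 in KO gel. Its WT levels were 7.66, 7.27 and 5.68 CPM in media and 9.61, 9 and 7.93 in gel. WT gel was above WT media without overlap, and KO gel above both, at 2.28-fold over KO media (log2 1.19, SE 0.13, adjusted p 5.67e-05). Aen, an exonuclease that degrades DNA in dying cells, went from 27.4, 22.9 and 26.7 CPM in KO media to 30.8, 35.5 and 34.2 in KO gel, with 23.3, 23.8 and 21.9 in WT media, with 25.5, 24.0 and 20.7 in WT gel. KO gel lay above the other 3 groups. The rise in KO cells was 1.30-fold (log2 0.38, SE 0.09, adjusted p 0.0101). Ei24 (0.11) and Trp53inp1 (0.34, SE 0.17) did not pass the test, and the Trp53inp1 libraries spread from 364 to 588 CPM over the gel groups.

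**Figure D2:**
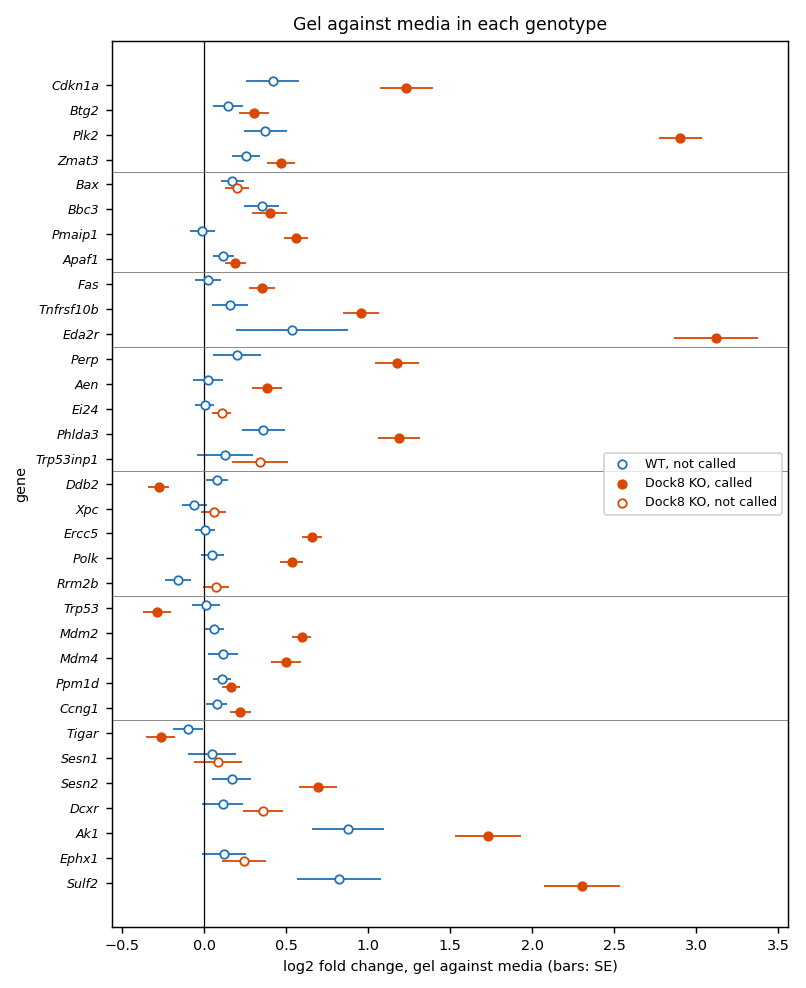
Log2 fold change of gel against media (x axis; bars are SE) for the 33 tested genes (y axis, by branch), in WT cells (blue) and Dock8 KO cells (orange); filled points passed the test. The 25 filled points are all of KO cells, and no WT point is filled.

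The repair genes were split. Ercc5, which encodes the XPG endonuclease of nucleotide excision repair (chromosome 1, 44147744 to 44181260), was at 33.9, 31.1 and 34 CPM in KO media, against 53.7, 50.7 and 51.6 in KO gel. In WT cells it held 33.9, 35.3 and 33.4 CPM in media and 35.8, 33.6 and 33.6 in gel. The 9 libraries outside KO gel lay within 31.1 to 35.8 CPM, and KO gel was 1.58-fold above KO media (log2 0.66, SE 0.06, adjusted p 1.71e-05). Polk, a translesion DNA polymerase, was at 33.8, 34.5 and 30.9 CPM in KO media, against 45.0, 49.4 and 49.4 in KO gel, with 30.2, 33.9 and 32.3 in WT media, with 33.7, 34.6 and 31.7 in WT gel. It rose 1.45-fold (log2 0.53, SE 0.07, adjusted p 0.000219), again with the other 3 groups overlapping.

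Ddb2, the damage sensor that starts global genome repair, moved the other way (chromosome 2, 91211572 to 91236982). It was at 53.5, 50.6 and 55.9 CPM in KO media, against 45.4, 41.5 and 45.1 in KO gel, and at 52.2, 56.7 and 58.7 CPM in WT media, with 57.3, 59.1 and 60.7 in WT gel. The KO gel libraries were below all others. Ddb2 fell by 0.28 on the log2 scale in KO cells (SE 0.07, adjusted p 0.0100), and was no longer called with scaling to total counts (adjusted p 0.0689). The gene shares 23.8% of its exon bases with Acp2 on the opposite strand, whose own value was -0.09 (adjusted p 0.427). The sources used here do not say whether the counting used strand. Xpc (0.06) and Rrm2b (0.07), a further excision repair factor and a ribonucleotide reductase subunit, did not pass the test.

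The feedback branch holds p53 and the genes that restrain it. Trp53 itself was at 139, 117 and 129 CPM in KO media, against 97.1, 109 and 108 in KO gel, with 149, 128 and 127 in WT media, with 145, 134 and 128 in WT gel. Its transcript was below all other libraries in KO gel, and fell by 0.29 on the log2 scale (SE 0.09, adjusted p 0.0296). The call was lost without KO media replicates 1 or 3 or KO gel replicates 1 or 3. Mdm2, the ubiquitin ligase that degrades p53 (chromosome 10, 117688875 to 117710758), stood at 89.1, 83.0 and 85.9 CPM in KO media, against 131, 124 and 134 in KO gel. In WT cells it was at 84.7, 88.8 and 89.4 CPM in media and 87.6, 95.3 and 91.5 in gel. KO gel was separate from the other 3 groups, 1.51-fold above KO media (log2 0.60, SE 0.06, adjusted p 3.43e-05).

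Mdm4, the partner of Mdm2 that masks the activation domain of p53, was at 168, 165 and 177 CPM in KO media, against 243, 236 and 242 in KO gel, and at 145, 184 and 188 CPM in WT media, with 170, 190 and 199 in WT gel. KO gel was above all other libraries. It rose 1.41-fold in KO cells (log2 0.50, SE 0.09, adjusted p 0.00208). Ccng1, cyclin G1, went from 248, 264 and 266 CPM in KO media to 294, 291 and 322 in KO gel, with 239, 246 and 242 in WT media, with 246, 269 and 252 in WT gel. KO gel was above the rest, by 1.17-fold over KO media (log2 0.22, SE 0.06, adjusted p 0.0274). That call was lost without KO media replicates 1 or 3 or KO gel replicates 1 or 3. Ppm1d, the phosphatase that shuts off p53 signalling, rose by 0.16 in KO cells, the smallest called rise, and its call was lost in 15 of 22 alternative analyses.

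Among the metabolic, redox and secreted genes, 3 of 7 tested rose and 1 fell. Sulf2, an extracellular sulfatase that trims heparan sulfate (chromosome 2, 166073089 to 166155663), was at 1.13, 0.831 and 0.923 CPM in KO media, against 4.01, 5.72 and 4.74 in KO gel. WT media held 0.768, 1.11 and 0.747 CPM and WT gel 1.16, 2.15 and 1.41. Gel was above media in both genotypes and highest in KO gel. The KO difference was 4.94-fold (log2 2.30, SE 0.23, adjusted p 3.43e-05) and the WT difference 1.77-fold (log2 0.82, SE 0.26, adjusted p 0.668). Sulf2 shares 2.62% of its exon bases with Ncoa3 on the opposite strand, which had far more counts (91596 against 989 in all) and a value of 0.03 (adjusted p 0.825).

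Ak1, an adenylate kinase that buffers ATP, was at 1.42, 0.929 and 1.82 CPM in KO media, against 4.01, 4.57 and 5.26 in KO gel. In WT cells it was at 1.35, 1.18 and 0.982 CPM in media and 2.22, 2.19 and 2.09 in gel. Gel was above media in both genotypes, by 3.32-fold in KO (log2 1.73, SE 0.20, adjusted p 0.000114) and 1.84-fold in WT cells (log2 0.88, SE 0.22, adjusted p 0.468). Sesn2, a leucine sensor that restrains mTORC1, went from 19.2, 14.2 and 19.5 CPM in KO media to 27.6, 27.7 and 30.2 in KO gel, with 15.7, 18.5 and 19.1 in WT media, with 18.5, 19.1 and 22 in WT gel. KO gel stood above all other libraries, 1.62-fold over KO media (log2 0.69, SE 0.12, adjusted p 0.00124).

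Tigar, a fructose-bisphosphatase that slows glycolysis, was the third member that fell. It was at 17.9, 15.8 and 16.0 CPM in KO media, against 13, 14.1 and 14.4 in KO gel, with 14.6, 13.8 and 13.6 in WT media, with 14, 13.8 and 11.6 in WT gel. KO media was the group that stood above the others here, and the KO gel libraries overlapped the WT ones. Tigar fell by 0.26 on the log2 scale (SE 0.09, adjusted p 0.0491), and the call was lost in 12 of 22 alternative analyses, among them the removal of any single KO library. Sesn1 (0.09), Dcxr (0.36, adjusted p 0.0524) and Ephx1 (0.25) did not pass the test. The stress cytokine gene Gdf15 had 5, 6 and 6 counts in KO gel, 0, 0 and 1 in KO media, 1, 0 and 2 in WT gel and 0, 0 and 0 in WT media, too few to test.

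The plot of levels per library shows 12 members, the 3 that fell among them. It holds none of the BCL2 family and apoptosome genes.

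**Figure D3:**
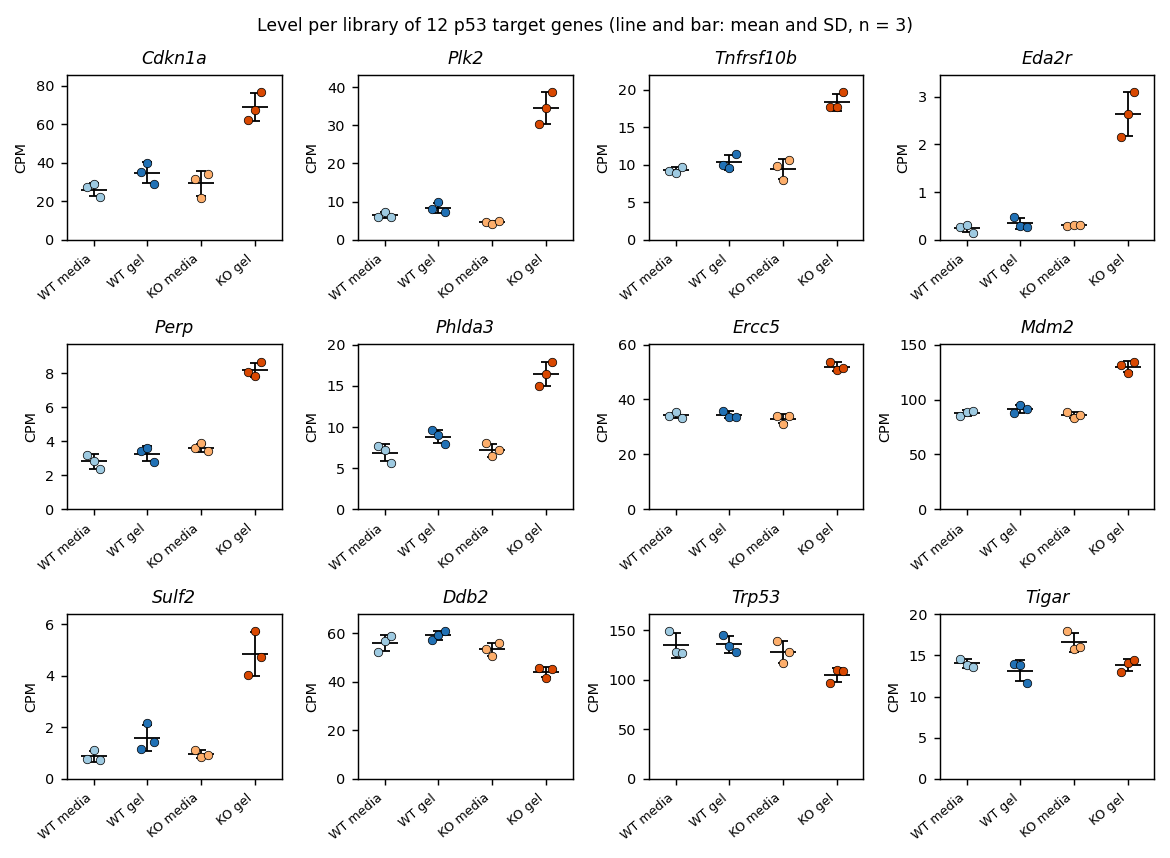
Level in CPM (y axes, from 0) of 12 p53 target genes in the 4 groups (x axes); each point is a library, and the line and bar are the mean and SD of 3. For 9 of the genes the KO gel points lie above all others, for Ddb2 and Trp53 below all others, and for Tigar they overlap the WT points.

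Members at low levels had the larger fold changes. The 8 members with a mean WT media level under 10 CPM had a median log2 fold change of 1.46 in KO cells, and the 11 members at 50 CPM or more one of 0.22. Over all genes tested the same classes had medians of 0.19 (9590 genes) and -0.10 (4259 genes). The level of the olfactory receptor genes also rose in KO gel, to 0.00577 to 0.00916 CPM per kilobase against 0.00259 to 0.00338 in the other libraries. Subtracting that level per kilobase from each member changed its log2 ratio of means by -0.0025 to 0.067 in the KO gel comparisons, with the largest change at Eda2r.

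Per kilobase of exon (CPM divided by the length of the merged exons), the members spanned a wide range. In WT media the highest were Ccng1 at 69.0 ± 0.962 (SD, n = 3), Trp53inp1 at 66.5 ± 13.7 and Btg2 at 59.2 ± 4.81 CPM per kilobase. The Trp53inp1 libraries overlapped those of both Ccng1 and Btg2, which did not overlap each other. Plk2 stood at 1.43 ± 0.161, Ak1 at 0.452 ± 0.0709, Sulf2 at 0.149 ± 0.0352 and Eda2r at 0.0404 ± 0.0134. In KO gel Ccng1, at 86.1 ± 4.93, and Trp53inp1, at 82.1 ± 10.4, had the highest means, with overlapping libraries, and Eda2r, at 0.447 ± 0.0788, was still the lowest tested member.

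**Figure D4:**
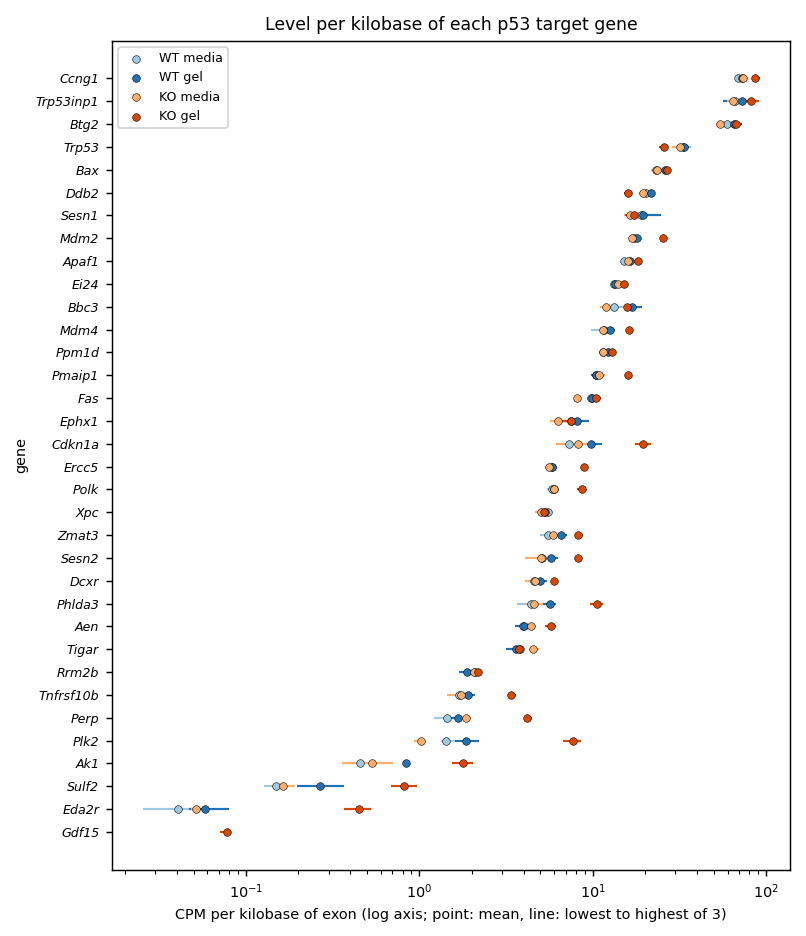
Level of each of the 34 genes (y axis) in CPM per kilobase of exon (x axis, log scale); points are group means and lines run from the lowest to the highest of 3 libraries. Gdf15 is drawn only where a group's value can be placed on the axis; the KO gel points of Plk2, Ak1, Sulf2 and Eda2r lie to the right of the other groups.

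Between the genotypes in gel, 17 of 33 members were higher in Dock8 KO cells, 2 were lower (Ddb2 and Trp53) and 14 did not pass the test. Over all genes 7.12% were called higher, 7.71% lower and 14.8% in either direction. This comparison shares the KO gel libraries with the one above. The median was 0.27, against -0.00032 for all genes. Groups did not overlap for 21 members with KO above and 2 with KO below, against 18.3% and 19.9% of all genes. Eda2r was 7.57-fold higher in KO cells (log2 2.92, SE 0.27, adjusted p 2.20e-05), Plk2 4.14-fold (2.05, SE 0.13, adjusted p 3.66e-07), Sulf2 3.13-fold (1.64, SE 0.23) and Perp 2.52-fold (1.34, SE 0.14). Cdkn1a was 1.98-fold higher (0.99, SE 0.16, adjusted p 0.00169) and Mdm2 1.42-fold (0.51, SE 0.06, adjusted p 0.00016).

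By branch in gel, 3 of 4 arrest genes were higher in KO cells, 1 of 4 BCL2 family and apoptosome genes (Pmaip1, 1.54-fold), 2 of 3 receptors, 3 of 5 other death effectors, 2 of 5 repair genes, 3 of 5 feedback genes and 3 of 7 metabolic genes. Bbc3 (-0.11, SE 0.11) and Fas (0.07, SE 0.08), which rose within KO cells, were not called between the genotypes. Ddb2 was lower by -0.42 (SE 0.07, adjusted p 0.000999) and Trp53 by -0.37 (SE 0.09, adjusted p 0.0108). With the libraries rich in ribosomal RNA left out, 15 members were higher and 1 was lower, for which no share over all genes is given here. Zmat3 was not called without WT gel replicates 1 or 3 or KO gel replicates 1 or 3, Ccng1 likewise, and Mdm4 without WT gel replicate 1 or KO gel replicates 1 or 3. Total-count scaling moved the median of all genes by 0.10 in this comparison, and 19 members were then higher and 1 (Ddb2) lower, with Trp53 not called (adjusted p 0.093). Over all genes 1875 were then called higher and 407 lower.

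In WT cells, 0 of 33 members were called between gel and media by edgeR, with 8 at an unadjusted p under 0.05. Over all genes 0.0368% were called, 0.0316% higher and 0.00526% lower. DESeq2 called 1 member (Ak1, higher, adjusted p 0.0488) and limma-voom 0, for which no shares over all genes are given here. With the replicate number as a block, which these WT libraries follow, 3 were called, all higher in gel, against 0.9% of all genes: Zmat3 (0.26, adjusted p 0.0177), Bbc3 (0.35, adjusted p 0.0134) and Ak1 (0.89, adjusted p 0.028). Of the 33 values, 29 were above 0, with a median of 0.12 against -0.006 for all genes, and 0.03 against -0.09 when libraries were scaled to total counts. Groups did not overlap for 9 members with gel above media and for 0 with gel below, against 4.65% and 4.53% of all genes. The values furthest from 0 were those of Ak1 (0.88), Sulf2 (0.82), Eda2r (0.54, SE 0.34) and Cdkn1a (0.42).

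Between the genotypes in media, 0 of 33 members were called by edgeR, with 4 at an unadjusted p under 0.05 (Plk2, Fas, Perp and Tigar), and DESeq2 and limma-voom also called 0. Over all genes 0.189% were called, 0.0263% higher and 0.163% lower in KO. Plk2 (-0.48, SE 0.13, adjusted p 0.329) and Fas (-0.26, SE 0.08, adjusted p 0.438) lay below WT in all KO libraries, and Perp (0.36, SE 0.14, adjusted p 0.594) and Tigar (0.24, SE 0.09, adjusted p 0.567) above it. Plk2 was called, lower in KO, when no filter on low counts was used (adjusted p 0.0139). KO was above WT without overlap for 3 members and below it for 3, against 4.88% and 5.83% of all genes. The median was 0.01 against -0.01 for all genes.

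By the interaction of genotype and culture, 10 members differed between the genotypes in their gel response, all with a larger log2 response in KO cells: Plk2 (2.53), Eda2r (2.58), Sulf2 (1.48), Perp (0.97), Phlda3 (0.83), Tnfrsf10b (0.80), Ercc5 (0.65), Pmaip1 (0.57), Mdm2 (0.53) and Polk (0.48). Over all genes 1.89% were called with the larger response in KO cells, 1.45% with the smaller and 3.35% in either direction. Another 8 members had an unadjusted p under 0.05 without passing the adjusted test, and the median of the 33 was 0.25 against 2.34e-05 for all genes. This count depended on single libraries, and no share over all genes is given here for their omission. It was 5 without WT media replicate 2, 6 without KO media replicate 3 and 6 without KO gel replicate 3. With the replicate number as a block it was 19 (17 with the larger value in KO cells, and Ddb2 and Trp53 with the smaller), against 18% of all genes, although the numbers paired the WT libraries and not the KO libraries. Without WT gel replicate 2 and KO media replicate 3 together it was 2 (Plk2 and Ercc5), where the calls over all genes went from 636 to 30. Cdkn1a had 0.81 (SE 0.23, adjusted p 0.0727) and was not called, but it was called in 4 of 21 alternatives (DESeq2, total counts, no filter on low counts and the replicate block), over which its adjusted p ran from 2.29e-07 to 0.17. For Bbc3 (0.05, SE 0.15) and Bax (0.03, SE 0.10), both death genes of the BCL2 family, a difference between the responses was not detectable.

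**Figure D5:**
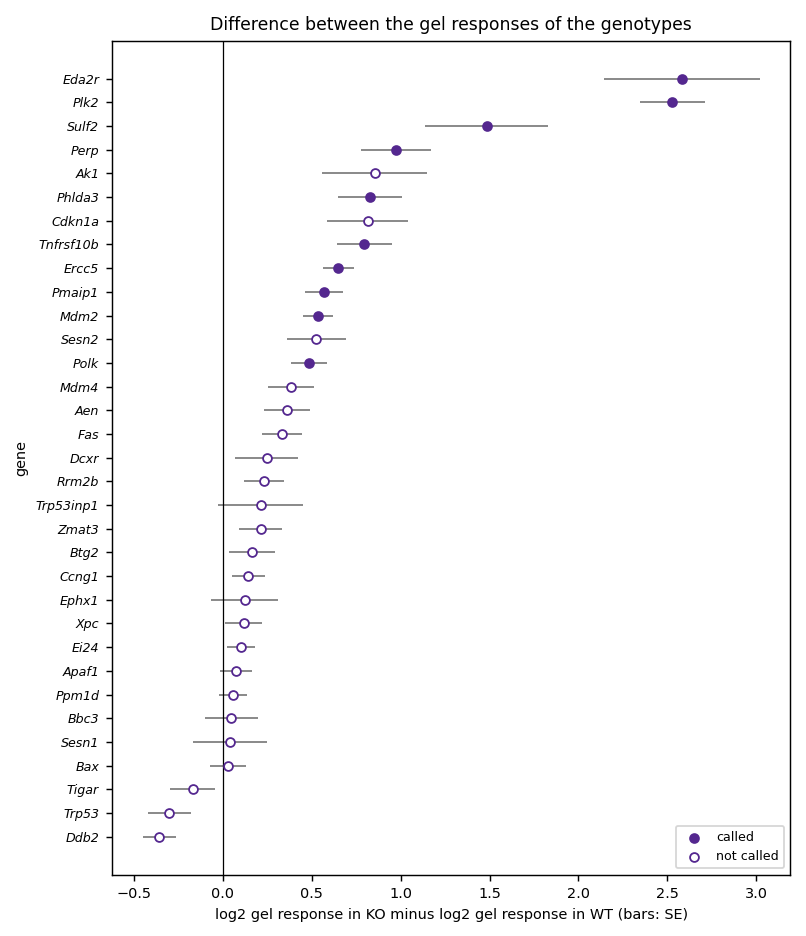
Difference between the gel responses, the log2 gel response in KO cells minus that in WT cells (x axis; bars are SE), for the 33 tested genes (y axis, in order of the value); filled points passed the test. The 10 filled points lie between 0.48 and 2.58, and the 3 values below 0 belong to Tigar, Trp53 and Ddb2.

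Other genes of the pathway were described from lists that hold no member. Of 21 tested kinases and cofactors upstream of p53, 2 rose and 1 fell in KO cells in gel against media, 14.3% against 20.8% of all genes: Ppp1r13l, an inhibitory ASPP protein, by 0.59, Cop1, a ubiquitin ligase for p53, by 0.23, and the checkpoint kinase gene Chek1 by -0.38. Of 21 other p53-induced genes, 8 rose and 1 fell (Fdxr, -0.28), 42.9% against the same 20.8%. They included Pvt1, a long non-coding RNA next to Myc (0.70, SE 0.07, adjusted p 5.06e-05), Inka2, an inhibitor of the kinase PAK4 (0.94, SE 0.14, adjusted p 0.00042), and Trp53cor1, the lincRNA-p21 transcript (0.83, SE 0.17, adjusted p 0.00418). Of 16 cell cycle genes that p21 and the DREAM repressor complex hold down, 0 rose and 14 fell, where 9.74% of all genes were called lower, among them Rrm2 (-0.55), Birc5 (-0.46) and Cdk1 (-0.42). Between the genotypes in gel, 15 of those 16 were lower in KO cells and 0 higher, where 7.71% of all genes were called lower. In that comparison 2 of the 21 other p53-induced genes were higher and 1 was lower, and so it was for the 21 upstream genes, 14.3% of each list against 14.8% of all genes. In WT cells between gel and media, and between the genotypes in media, edgeR called 0 genes of the 3 lists, with at most 1 gene per list at an unadjusted p under 0.05 in the first and at most 2 in the second.

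Markers of other cells were measured beside these results, and their part in them was not tested. The summed level of the 6 CD8 T cell markers lay between 2690 and 3237 CPM over all libraries, with 0 of 6 higher and 1 lower in KO gel than in KO media. Of the neutrophil markers, S100a8, S100a9 and Retnlg were at 0 in KO gel, while Mpo was higher there, with a summed level over the 5 listed of 1.08 to 1.25 CPM in KO gel and at most 0.293 elsewhere. Of 4 tested erythroid and platelet markers, 2 were higher in KO gel than in KO media, with a summed level over the 6 listed of 11.6 to 25.4 CPM in KO gel and 3.18 to 7.65 in the other groups. Of 4 CD4 and regulatory T cell markers, 3 were higher, with a summed level of 298 to 320 CPM in KO gel, 211 to 253 in KO media and 345 to 353 in WT gel, most of it Ctla4. Mitochondrially encoded transcripts took 2.27 to 2.61% of counts in KO gel and 1.34 to 2.31% elsewhere.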

How the data were processed

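RNA was measured in 12 libraries. Per the labels' protocols, ribosomal RNA was depleted with RiboCop and libraries were made with the KAPA RNA HyperPrep kit. Reads were handled with HISAT2, SAMtools, Picard and featureCounts on GRCm38 (mm10), with FastQC and MultiQC, per the submitters' processing notes. The versions, annotation and strand setting were not given in the sources. The deposited table holds raw counts per gene symbol, made by the authors with no normalization. All its value columns matched a sample by name.

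Genes were kept by filterByExpr, which left 19010 of 55291; the genes removed held 0.0437 to 0.104% of a library's counts. After TMM scaling, 1 robust quasi-likelihood model of edgeR covered the 4 groups (R 4.3.3, edgeR 4.0.16, limma 3.58.1, DESeq2 1.42.0), with 5 contrasts and no block. A gene was called at an adjusted p under 0.05 (Benjamini-Hochberg, over the 19010 genes of a contrast). SE is the absolute log2 fold change over the square root of F. A prior count of 2 was added for the log2 levels used to compare same-numbered libraries, and no prior count for the heat map. Replicates of a group differed by more than counting noise (chi-square per degree of freedom 13.2 to 171), so none were merged, and the error comes from the spread between libraries rather than depth. Same-numbered media and gel libraries deviated together in WT cells (r 0.78, 0.24 and 0.79, against -0.80 to -0.02 for other numbers), so the numbers pair the WT libraries by the data, though no label says so; in KO cells r was -0.04, 0.17 and 0.18. Lengths and positions came from GENCODE M21, and promoter windows from RefSeq (GRCm38.p6).

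The p53 target genes, the branches, the other lists and the tests were chosen with earlier results of these data known. Given with values per library were, in each branch, up to 3 members with the smallest p for gel against media in KO cells, members called in the interaction, and members called lower anywhere; from each other list, up to 3 by the same p. Fdxr was named outside this rule, after its value was seen. Simulated data for gel against media in KO cells, with 200 of 19010 genes changed, were also tested: 73.1% of genes changed 1.5-fold, 89.6% of those changed 2-fold and 97.0% of those changed 4-fold were recovered. Of 184 calls, 11 were false. The simulation changed far fewer genes than the 20.8% called in the real contrast, and drew them above a minimum level. Its rates therefore need not hold for the real libraries. The 22 alternatives were other tools (DESeq2, limma-voom), scalings and filters, a fit to the compared groups only, replicate blocks, the omission of each library, and the omission of the libraries rich in ribosomal RNA.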

Additional observations from a re-analysis of the deposited data

Results flagged for a closer look

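The genes below are singled out because their gel response differed between the genotypes by a test of the difference itself (the interaction term in edgeR, adjusted over all genes). In all of them the log2 response was larger in Dock8 KO cells, and the values are the KO response minus the WT response. The difference was 2.53 for Plk2 (SE 0.18, adjusted p 1.19e-05) and 0.65 for Ercc5 (SE 0.09, adjusted p 0.00316), and these were called in every alternative run. It was 2.58 for Eda2r (SE 0.44, adjusted p 0.00998), 0.80 for Tnfrsf10b (SE 0.15, adjusted p 0.0164) and 0.53 for Mdm2 (SE 0.08, adjusted p 0.0077), each of which lost its call only without the libraries rich in ribosomal RNA (adjusted p 0.0686, 0.0686 and 0.0537). It was 0.57 for Pmaip1, 0.48 for Polk, 0.97 for Perp, 0.83 for Phlda3 and 1.48 for Sulf2 (adjusted p 0.014 to 0.033), which also lost the call when single libraries were left out: WT media replicate 2 for each of these 5, KO gel replicate 1 for Pmaip1, Perp and Sulf2, KO gel replicate 3 for Polk, Perp, Phlda3 and Sulf2, and KO media replicate 3 for Polk, Perp, Phlda3 and Sulf2, among others.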

How the results depend on the processing

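No called member changed direction in any alternative. Among members called in the report, 16 of 25 kept their call in all alternatives for gel against media in KO cells, 15 of 19 for KO against WT in gel, and 2 of 10 (Plk2 and Ercc5) for the difference between the gel responses. Leaving out single libraries gave 17 to 27 members called for gel against media in KO cells, 16 to 20 for KO against WT in gel, 5 to 14 for the difference between the responses, and 0 to 0 for gel against media in WT cells and for KO against WT in media. Shares of all genes are not given beside these ranges. For gel against media in WT cells, DESeq2 called 1 member and the fit without a filter on low counts 3. For KO against WT in media the fit without that filter called 1. Shares of all genes under these fits are not given here either, and without that filter a larger set of genes was tested. The difference between the responses held 2 members without the libraries rich in ribosomal RNA, an alternative chosen after seeing the data. The causes were not tested. Uncalled values that changed sign were at most 0.15 in size.

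With the replicate number as a block, gel against media in WT cells called 3 members (Zmat3, Bbc3 and Ak1), and the difference between the responses 19. It called 28 for gel against media in KO cells, 19 for KO against WT in gel and 0 for KO against WT in media. For these contrasts the shares of all genes called under the block are not given here. Without the block they were 20.8%, 14.8% and 0.189%. Depth left Gdf15 too low to test; for the other members 3 libraries per group limit the precision.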
